A study of Mus musculus with 2 samples.

Results

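The 10 genes described here encode the laminin chains, nidogens and perlecan, the glycoproteins of basement membranes other than type IV collagen: Lama2, Lama3, Lama4, Lama5, Lamb1, Lamb2, Lamc1, Nid1, Nid2 and Hspg2. They were taken by symbol from the 32285 genes of the count matrices, and each symbol occurred once. The samples were 2 droplet-based scRNA-seq libraries (3′ chemistry, of which the labels and the study's methods name different versions) of mouse temporomandibular joint (TMJ), the hinge between jaw and skull, from C57BL/6 animals of 8-10 weeks. The joints of both genotypes had received complete Freund's adjuvant (CFA), an oil emulsion of killed mycobacteria that sets off arthritis, so no joint without arthritis is in the comparison. The WT library came from animals without the mutation, and the mutant library from Prox1 mutant animals, heterozygous in the study. Prox1 encodes a transcription factor that specifies lymphatic endothelium. Each genotype was 1 library, and how many animals each held was not given in the sources used here. The levels therefore carry counting error alone, with no spread between replicates, and a difference between the libraries cannot be told apart from a difference between 2 joint preparations.

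A basement membrane is a thin matrix sheet under endothelium and around smooth muscle, nerve fibres and muscle fibres. Its base is laminin, a cross-shaped trimer of 1 alpha, 1 beta and 1 gamma chain, in which the alpha chain carries the main sites for cell-surface receptors. Nidogens bridge laminin to type IV collagen, and perlecan is a large heparan sulphate proteoglycan that links the layers and holds growth factors. Alpha-4 and alpha-5 chains are the alpha chains usually described in vessels, and alpha-2 is the chain of muscle and peripheral nerve, whose loss causes a congenital muscular dystrophy.

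The comparison covered 5 classes of cells. These were clusters named from marker genes, and stand for endothelial-like, mural-like (smooth muscle and pericyte), Schwann-like, satellite-like and stromal-like cells. Endothelial cells numbered 1002 in WT and 556 in mutant, mural cells 214 and 157, and Schwann cells 374 and 161. Satellite cells, the stem cells of muscle, numbered 89 and 36, and stromal cells (fibroblasts) 543 and 407. Together these were 2222 of 4352 kept WT cells and 1317 of 5757 kept mutant cells. The endothelial, mural, satellite and stromal marker lists were raised in both libraries in 9 of 9, 16 of 16, 9 of 9 and 9 of 9 genes, and the Schwann list in 11 of 13. Laminin, nidogen and perlecan genes took no part in the clustering. The targeted gene, Prox1, was at 11.6 CPM (counts per 1000000 UMIs of the cells summed) in the WT library and 5.80 CPM in the mutant library over all kept cells, and at 42.9 CPM and 25.7 CPM in endothelial cells. Median depth per kept cell was 6997 UMIs in WT and 4848 in mutant, and 4 kept barcodes occurred in both libraries. A stromal cluster led by Cxcl5 held 4 WT and 51 mutant cells, the latter with a median of 3428 UMIs, and a smooth muscle cluster held 1 WT and 33 mutant cells, so both stood almost wholly for the mutant library.

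Levels below are CPM with exact 95% Poisson intervals in brackets, and shares carry exact Clopper-Pearson intervals, both of which cover counting error only. Where 2 values stand together, the first is WT and the second mutant. A 3′ library counts each transcript near its end, so no division by length was made. The genes span 10.79 kb (Lamb2) to 639.7 kb (Lama2) of the genome, and whether reads from introns were counted was not stated, so levels are compared between cells for 1 gene and not between genes. By GENCODE M21 on GRCm38, Lama2 lies at chr10:26980036-27619758 on the minus strand, Lama4 on the same chromosome at chr10:38965515-39110188 on the plus strand and Lamc1 at chr1:153218922-153332786 on the minus strand. No member overlaps another counted gene on its own strand, and Lama2, Lama3, Nid1 and Nid2 overlap 1 or 2 genes on the opposite strand.

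Each class had its own leading members. In both libraries Lama3 and Hspg2 were highest in endothelial cells, Lama5 and Lamb2 in mural cells, Lamb1 and Nid2 in Schwann cells, Lama2 in satellite cells and Nid1 in stromal cells. Lama4 and Lamc1 had no class that led in both libraries. Against a background of 18.1% (endothelial), 9.98% (mural), 17.0% (Schwann), 11.0% (satellite) and 12.8% (stromal) of 11136 genes, 2 of 10 members led in each of the first 3 classes and 1 of 10 in each of the others, counts too small to be set apart from genes at large. At least 2-fold over every other class in both libraries were Lama3 in endothelial cells, Lamb2 in mural cells, Lamb1 in Schwann cells and Lama2 in satellite cells. The share of all genes that did so was 4.93%, 2.67%, 3.84% and 1.38%, and 3.44% in stromal cells, where no member did.

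**Figure D1:**
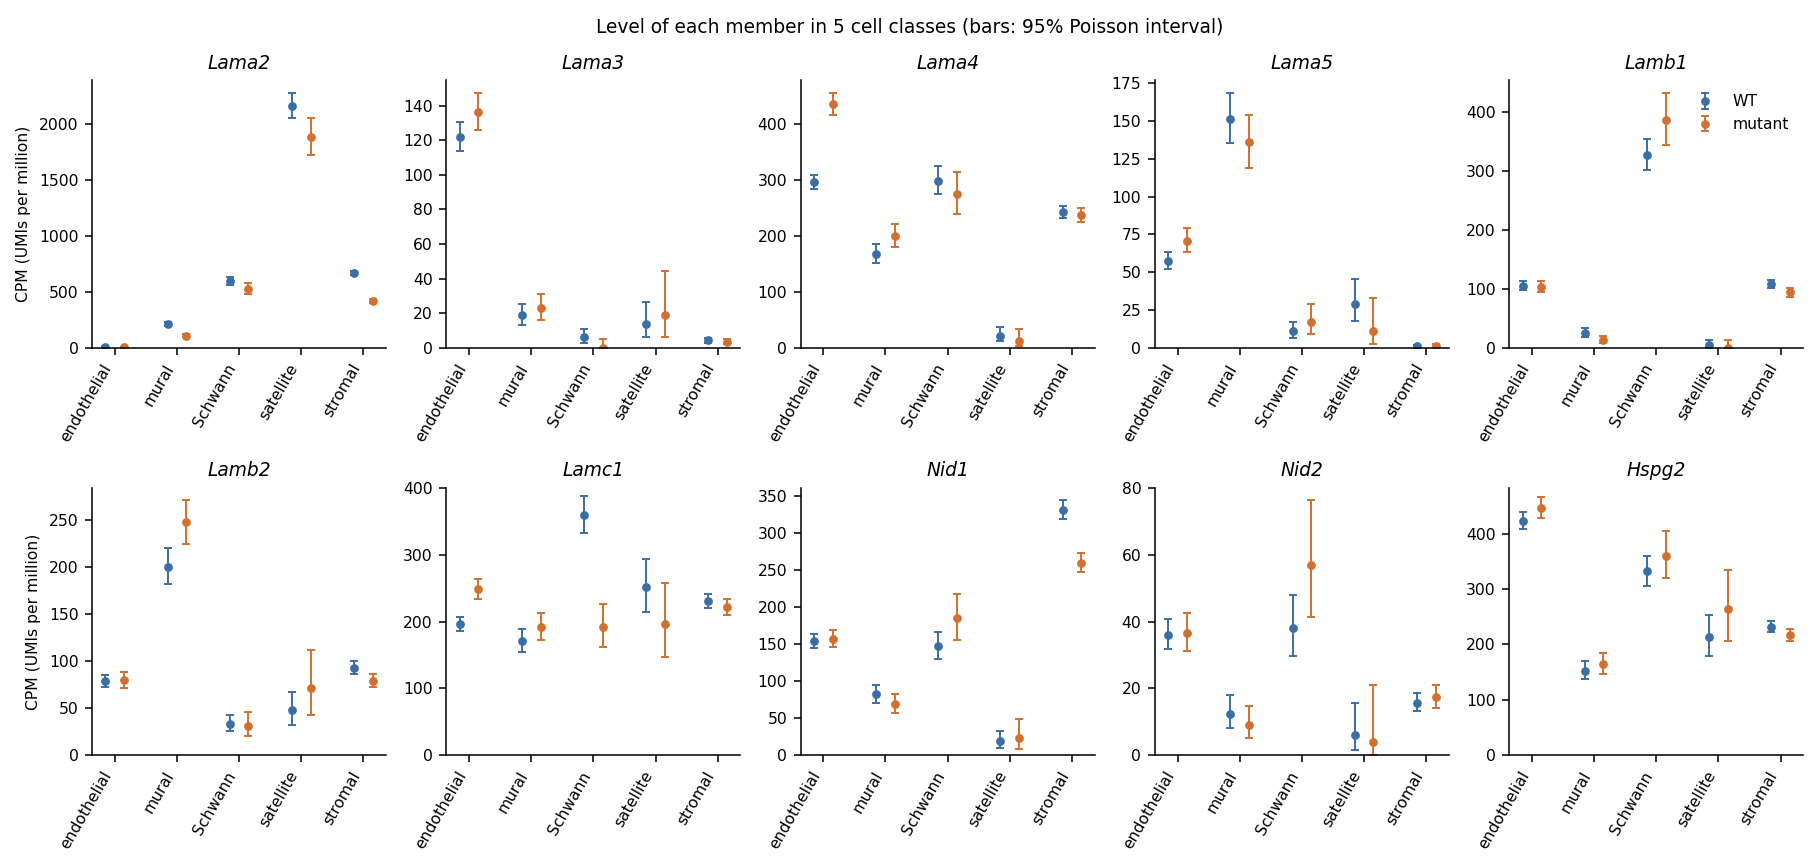
Level of each of the 10 genes (CPM, linear axis from 0, 1 panel per gene) in 5 cell classes, with WT in blue and mutant in orange and bars giving the 95% Poisson interval. Lama2 stands highest in satellite cells at 2158 and 1882 CPM, Lama3 in endothelial cells, Lama5 and Lamb2 in mural cells and Lamb1 in Schwann cells.

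Of the alpha chains, Lama2 (alpha-2) was measured at 2158 CPM (2047 to 2274) in WT and at 1882 CPM (1720.4 to 2055) in mutant satellite cells. Every satellite cell of either library had at least 1 Lama2 UMI, and after each cell was thinned to 2000 UMIs the share was 96.5% and 88.9%. Stromal cells were next in WT at 671 CPM (653 to 689) and Schwann cells next in mutant at 527 CPM (477 to 581). The other values were 416 CPM (399.6 to 432) in mutant stromal cells and 596 CPM (562 to 633) in WT Schwann cells. These 2 classes changed places between the libraries, and their intervals did not overlap within either library. The WT order leaned on 1 stromal droplet with 553 Lama2 UMIs. Without the droplet richest in Lama2 in each class and library, stromal and Schwann cells were at 608 and 581 CPM in WT. In mutant they were then at 386 and 497 CPM, and no intervals were computed for these levels. Mural cells held 213 and 109 CPM, and endothelial cells 8.54 and 4.61 CPM. The endothelial intervals held the 8.98 and 4.43 CPM of B cells, T cells and neutrophils combined, blood cells that should make no laminin alpha-2, so this level is read as background.

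Lama3 (alpha-3, best known from the basement membrane of skin) was at 122 CPM (114 to 131) in WT and at 136 CPM (126 to 147) in mutant endothelial cells. Mural cells followed with 18.7 and 22.7 CPM, and stromal cells held 4.18 and 3.4 CPM. Schwann cells had 11 UMIs in WT and 0 in mutant, where a count of 0 allows up to 3.87 CPM. The share of endothelial cells with a Lama3 UMI after thinning was 18.3% and 17.1%, against 0% and 0.448% of B cells, T cells and neutrophils. Unthinned, these shares were 30.9% and 32.0%, against 0.361% and 0.646%, at median depths of 4548 and 5658 UMIs in endothelial cells and 4745 and 5226 in the blood cells.

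Lama4 (alpha-4, a chain of vessel walls) was spread over 4 classes. In WT, Schwann cells at 298 CPM (274 to 324) and endothelial cells at 296 CPM (283 to 309) did not differ beyond their intervals. Stromal cells held 242 CPM (232 to 253) and mural cells 167 CPM (151 to 185). In mutant, endothelial cells stood above the rest at 436 CPM (417 to 455), followed by Schwann cells at 274 CPM (238 to 313), stromal cells at 237 CPM (225 to 249.9) and mural cells at 199 CPM (179 to 221). Satellite cells held 21.5 and 11.3 CPM.

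Lama5 (alpha-5, the other vascular alpha chain) was at 151 CPM (136 to 169) in WT and at 136 CPM (119 to 154) in mutant mural cells and at 57.5 CPM (52.0 to 63.4) in WT and at 70.9 CPM (63.4 to 79.1) in mutant endothelial cells. Stromal cells were the lowest class with 8 UMIs in WT and 8 in mutant, or 0.983 and 1.3 CPM. Fibroblasts and mural cells thus lay at opposite ends of the range for this chain. Schwann cells were at 10.9 and 16.8 CPM and satellite cells at 29.2 and 11.3 CPM.

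Of the beta chains, Lamb1 (beta-1) was at 327 CPM (302 to 354) in WT and at 386 CPM (344 to 433) in mutant Schwann cells. Endothelial cells were at 105 and 104 CPM and stromal cells at 108 and 94.0 CPM, whose intervals overlapped in both libraries. Mural cells held 25.1 and 13.1 CPM, and satellite cells 3 UMIs in WT and 0 in mutant. Lamb2 (beta-2, the chain of the neuromuscular junction and of arterial walls) had another order, at 201 CPM (182 to 220.3) in WT and at 248 CPM (225 to 272) in mutant mural cells and at 33.1 CPM (25.3 to 42.5) in WT and at 31.0 CPM (19.9 to 46.1) in mutant Schwann cells. Stromal cells held 93.1 and 79.1 CPM, endothelial cells 78.8 and 79.5 CPM and satellite cells 47.7 and 71.8 CPM.

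Lama5 and Lamb2 were the members led by mural cells in both libraries. The sequences just before the starts of their GENCODE genes are shown to set the pair side by side. The windows are from RefSeq promoter entries (GRCm38.p6), which matched 6 of the 10 members, and bases inside the GENCODE M21 gene were left out. The Lama5 window is chr2:180225860-180226109 on the minus strand (250 bases) and the Lamb2 window chr9:108479612-108479735 on the plus strand (124 bases). Capitals mark the GC box, searched as GGGCGG on either strand.
Lama5: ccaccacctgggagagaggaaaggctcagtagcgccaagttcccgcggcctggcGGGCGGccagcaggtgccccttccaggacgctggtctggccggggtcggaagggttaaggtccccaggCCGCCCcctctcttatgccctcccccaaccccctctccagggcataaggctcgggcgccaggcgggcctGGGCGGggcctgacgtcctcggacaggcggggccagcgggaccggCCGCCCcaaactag
Lamb2: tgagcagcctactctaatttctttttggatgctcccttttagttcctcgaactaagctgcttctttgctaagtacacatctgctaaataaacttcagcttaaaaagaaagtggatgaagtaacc
The Lama5 window held 4 GC boxes and was 72.4% G or C. Of 32851 RefSeq windows of that length, 32.7% held at least 1 box and 4.09% held at least 4. In the Lamb2 window there was none, with 37.9% G or C, where 13.3% of windows of the same length and place held 1. The windows differ in length, and the Lamb2 window stops where its GENCODE gene begins. The bases from there to the RefSeq start were left out, so a GC box among them could not be seen. Whether the 2 promoters share the box is thus not answered.

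The gamma chain Lamc1 (gamma-1, a part of most laminins) was the most evenly spread member. In WT it ran from 171 CPM (154 to 189) in mural cells to 360.3 CPM (333 to 389) in Schwann cells, with satellite, stromal and endothelial cells at 252, 231 and 196 CPM. Mutant levels ran from 192 CPM (172 to 214) in mural cells to 249 CPM (235 to 264) in endothelial cells, and Schwann cells were at 192 CPM (163 to 226). Lamc1 was also counted in blood cells, at 134 and 154 CPM in B cells, 295 and 142 CPM in T cells and 70.5 and 64.4 CPM in macrophages. Among the other 9 members the highest level in B cells was 4.56 CPM, in T cells 23.6 CPM (Lama2 in mutant, 12 UMIs) and in macrophages 4.06 CPM.

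Nid1 (nidogen-1) was at 332 CPM (319 to 344) in WT and at 260.1 CPM (248 to 273) in mutant stromal cells. Endothelial cells at 154 and 157 CPM and Schwann cells at 147 and 185 CPM came next, and their intervals overlapped in both libraries. Mural cells were at 82.1 and 68.8 CPM and satellite cells at 18.5 and 22.7 CPM. Nid2 (nidogen-2) was low in all 5 classes, at 38.0 CPM (29.6 to 48.0) in WT and at 56.8 CPM (41.3 to 76.3) in mutant Schwann cells and at 36.1 CPM (31.7 to 40.8) in WT and at 36.5 CPM (31.1 to 42.4) in mutant endothelial cells, and these intervals overlapped in both libraries. Stromal cells held 15.7 and 17.3 CPM of Nid2, so that Nid1 made up 95.5% (94.6 to 96.2) and 93.8% (92.5 to 94.8) of their nidogen UMIs, against 79.5% (74.8 to 83.6) and 76.5% (69.7 to 82.4) in Schwann cells.

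Hspg2 (perlecan) was highest in endothelial cells at 423 CPM (408 to 439) in WT and at 447 CPM (427 to 466) in mutant. Schwann cells followed at 332 CPM (306 to 359) in WT and at 360.3 CPM (319 to 405) in mutant. Stromal and satellite cells were at 232 and 217 CPM and 214 and 265 CPM, and mural cells were lowest at 153 and 165 CPM. It was the only member above 100 CPM in all 5 classes of both libraries other than Lamc1.

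The mix of chains separated the classes further. Shares are percentages of the UMIs of 1 chain type in a class, and carry the limit on comparing genes given above. Endothelial alpha chain UMIs were 61.1% (59.4 to 62.8) Lama4 in WT and 67.3% (65.6 to 69.0) in mutant, and Lama3 made up 25.2% and 21.0%. Satellite cells were at 97.1% (96.1 to 97.9) and 97.8% (96.2 to 98.9) Lama2. Schwann cells combined 65.4% and 64.5% Lama2 with 32.7% and 33.5% Lama4. Stromal cells had the same pair, with Lama2 at 73.1% (72.0 to 74.1) and 63.2% (61.7 to 64.7). Mural cells were the only class of the 5 in which 3 alpha chains each reached 20%, with Lama2 at 38.6% and 23.3%, Lama4 at 30.4% and 42.8% and Lama5 at 27.5% and 29.1%. This class pools smooth muscle, with Lama2 at 30.6% and 15.5%, and pericytes, with Lama5 at 3.08% and 3.15%. In mutant, neither type alone had 3 chains at 20%. In WT smooth muscle all 3 reached it, but 1 droplet held 104 of the 240 Lama2 UMIs.

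For the beta chains, Lamb1 made up 90.8% (88.4 to 92.9) and 92.6% (89.1 to 95.2) of UMIs in Schwann cells and 11.1% (8.48 to 14.2) and 5.01% (3.2 to 7.42) in mural cells. Endothelial and stromal cells were mixed, with Lamb1 at 57.2% and 56.6% in the former and 53.6% and 54.3% in the latter. Satellite cells held few beta chain UMIs of either kind, 34 in WT and 19 in mutant, beside 1445 and 509 alpha chain UMIs.

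**Figure D2:**
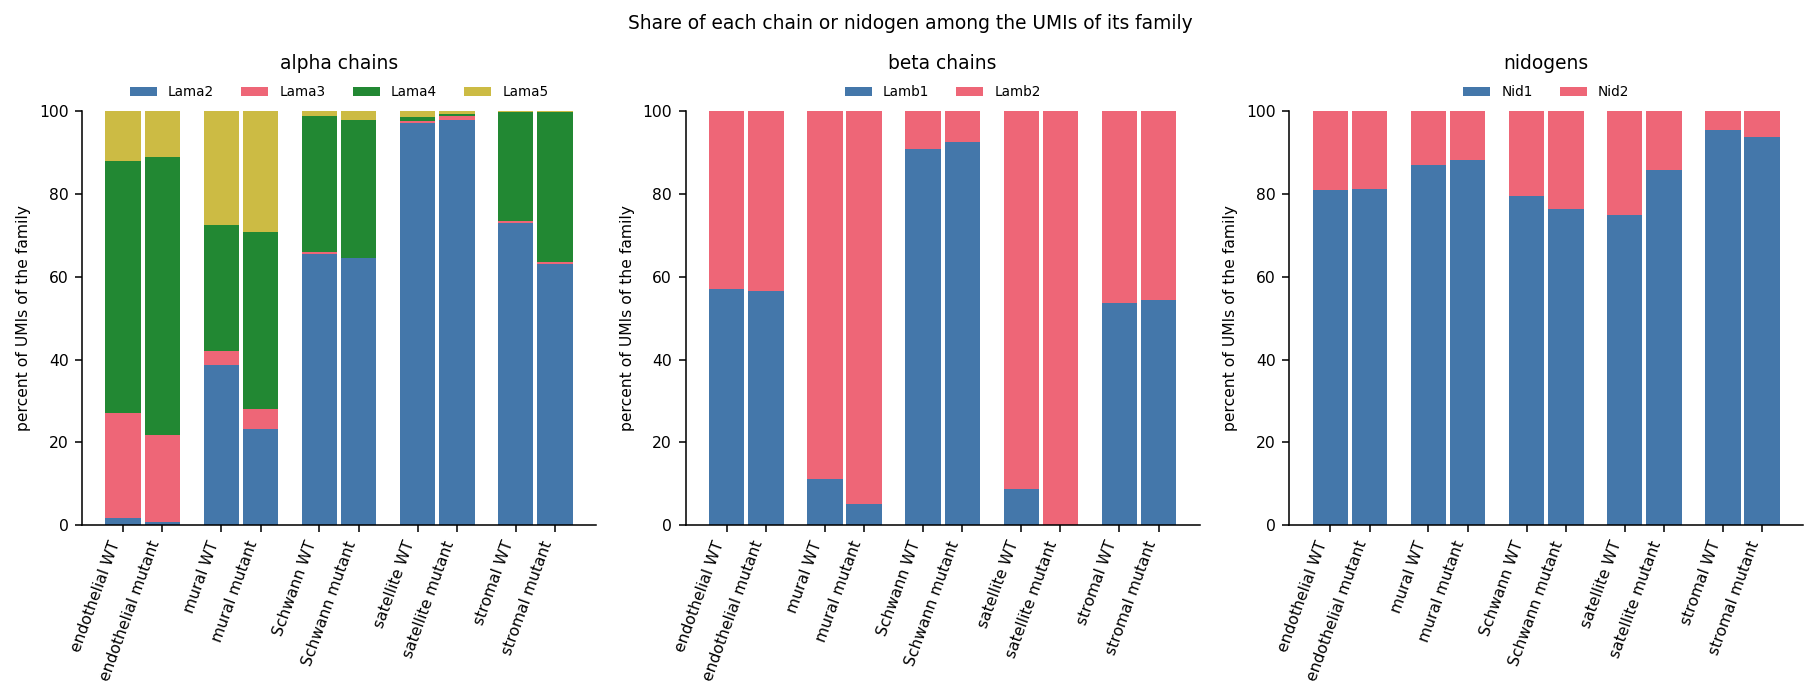
Share (percent of UMIs) of each alpha chain, beta chain and nidogen within its family in 5 cell classes, with the WT and mutant bars of a class side by side. Lama2 fills 97.1% and 97.8% of the satellite alpha chain bars, and Lamb2 88.9% and 95.0% of the mural beta chain bars.

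Within endothelium the chains differed between vessel types. No cluster was named lymphatic, the type that Prox1 specifies, although lymphatic markers were among the lists. A shallow endothelial cluster (97 WT, 77 mutant) matched no vessel type. Arterial cells (284 WT, 152 mutant) had Lama3 at 284 CPM (259 to 309.6) in WT and at 327 CPM (296 to 359) in mutant, capillary cells (457 and 234) at 72.6 CPM (62.0 to 84.4) in WT and at 45.1 CPM (34.8 to 57.5) in mutant and venous cells (164 and 93) at 61.5 CPM (52.4 to 71.8) in WT and at 79.6 CPM (66.9 to 94.1) in mutant. The arterial level was 3.91-fold the capillary level in WT and 7.24-fold in mutant. Of 8 members with at least 200 UMIs in the pair, Lama3 was the 1 at least 2-fold higher in arterial cells in both libraries, and none was 2-fold lower, where 3.76% and 2.30% of 5430 genes were. Lama3 thus came to 47.5% and 44.5% of arterial alpha chain UMIs, and Lama4 to 38.3% and 41.2%. In venous cells Lama4 made up 74.3% and 77.0%.

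The beta chains changed places between capillary and venous cells. Lamb1 was 3.46-fold and 2.27-fold higher in venous cells, at 198 CPM (181 to 215) in WT and at 170.3 CPM (151 to 191) in mutant against 57.1 and 74.9 CPM. Lamb2 was 2.32-fold and 2.41-fold lower there, at 40.1 CPM (32.8 to 48.6) in WT and at 36.6 CPM (28.1 to 46.9) in mutant against 93.2 and 88.1 CPM. These were the 2 of 9 members past 2-fold in both libraries, 1 in each direction, against a background of 7.50% higher and 5.83% lower among 6084 genes. Lamb1 made up 24.9% and 28.9% of beta chain UMIs in arterial cells, 38% and 46.0% in capillary and 83.1% and 82.3% in venous cells. Hspg2 was similar in capillary and venous cells, at 465 and 489.7 CPM and 479.8 and 512 CPM, and lower in arterial cells at 311 and 334 CPM.

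Mural cells split by chain between smooth muscle (152 WT, 122 mutant) and pericytes (62 and 35). The genes leading the pericyte cluster included Actg2 and Cnn1 of the smooth muscle marker list, beside Vtn, Rgs5, Abcc9 and Kcnj8 of the pericyte list. Lama5 was at 193 CPM (172 to 215) in WT and at 165 CPM (144 to 188) in mutant smooth muscle and at 24.2 CPM (12.9 to 41.5) in WT and at 22.3 CPM (9.63 to 43.9) in mutant pericytes, a 7.94-fold and 7.4-fold difference. Pericytes were higher in Nid1 by 6.18-fold and 3.25-fold, in Lama2 by 2.91-fold and 4.57-fold and in Lama4 by 2.69-fold and 2.44-fold. Of 7 members, 3 were thus 2-fold higher and 1 2-fold lower in pericytes in both libraries, where 7.77% and 7.71% of 3566 genes were. Stromal marker genes were also higher in pericytes, at 5391 and 4942 CPM summed over 9 genes against 1751 and 833 CPM in smooth muscle, and their part in the Lama2, Lama4 and Nid1 levels was not tested. Lamb2 was above 100 CPM in both types, at 221 and 268 CPM in smooth muscle and 138 and 167 CPM in pericytes.

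Among Schwann cells, none of 6 members was past 2-fold in both libraries between non-myelinating (50 WT, 14 mutant) and myelinating cells (324 and 147), where 6.26% of 2748 genes were higher and 11.2% lower. Lama2 was higher in non-myelinating cells at 813 CPM (743 to 888) in WT and at 1054 CPM (862 to 1276) in mutant, against 488 CPM (450.2 to 529) in WT and against 449 CPM (400.0 to 503) in mutant. Lamb1 was lower there, at 207 CPM (173 to 247) in WT and at 110.4 CPM (55.1 to 198) in mutant against 387 CPM (353 to 423) in WT and against 427 CPM (379 to 479) in mutant. Only 14 mutant cells and 11 Lamb1 UMIs stand behind the mutant value.

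Stromal cells fell into a Pi16-positive cluster (371 WT, 256 mutant) and a cluster led by Tnn, Postn and Fmod (168 and 100) that took the name tendon from its markers. The Pi16-positive cluster was led by Prg4, Clec3b, Has1, Col14a1 and Pi16, and Prg4 and Has1 were also on the marker list for synovial lining. Of 8 members, 5 were at least 2-fold lower in the tendon-like cells in both libraries, namely Nid1, Lamb1, Lamc1, Lama4 and Nid2. Of 8177 genes, 7.75% were, and 3.85% were 2-fold higher, where no member was. Nid1 was at 75.5 CPM (64.8 to 87.5) in WT and at 54.3 CPM (42.9 to 67.9) in mutant tendon-like cells against 437 CPM (420.2 to 455) in WT and against 332 CPM (315 to 349) in mutant Pi16-positive cells. Lamc1 was at 92.1 and 83.2 CPM against 285 and 272 CPM, and Lamb1 at 35.0 and 26.8 CPM against 135 and 118 CPM. Hspg2 did not follow these 5, at 234 CPM (215 to 255) in WT and at 217 CPM (193 to 242) in mutant tendon-like and at 232 CPM (219.8 to 245) in WT and at 220.0 CPM (207 to 234) in mutant Pi16-positive cells. Lamb2 was 1.36-fold and 1.27-fold lower.

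**Figure D3:**
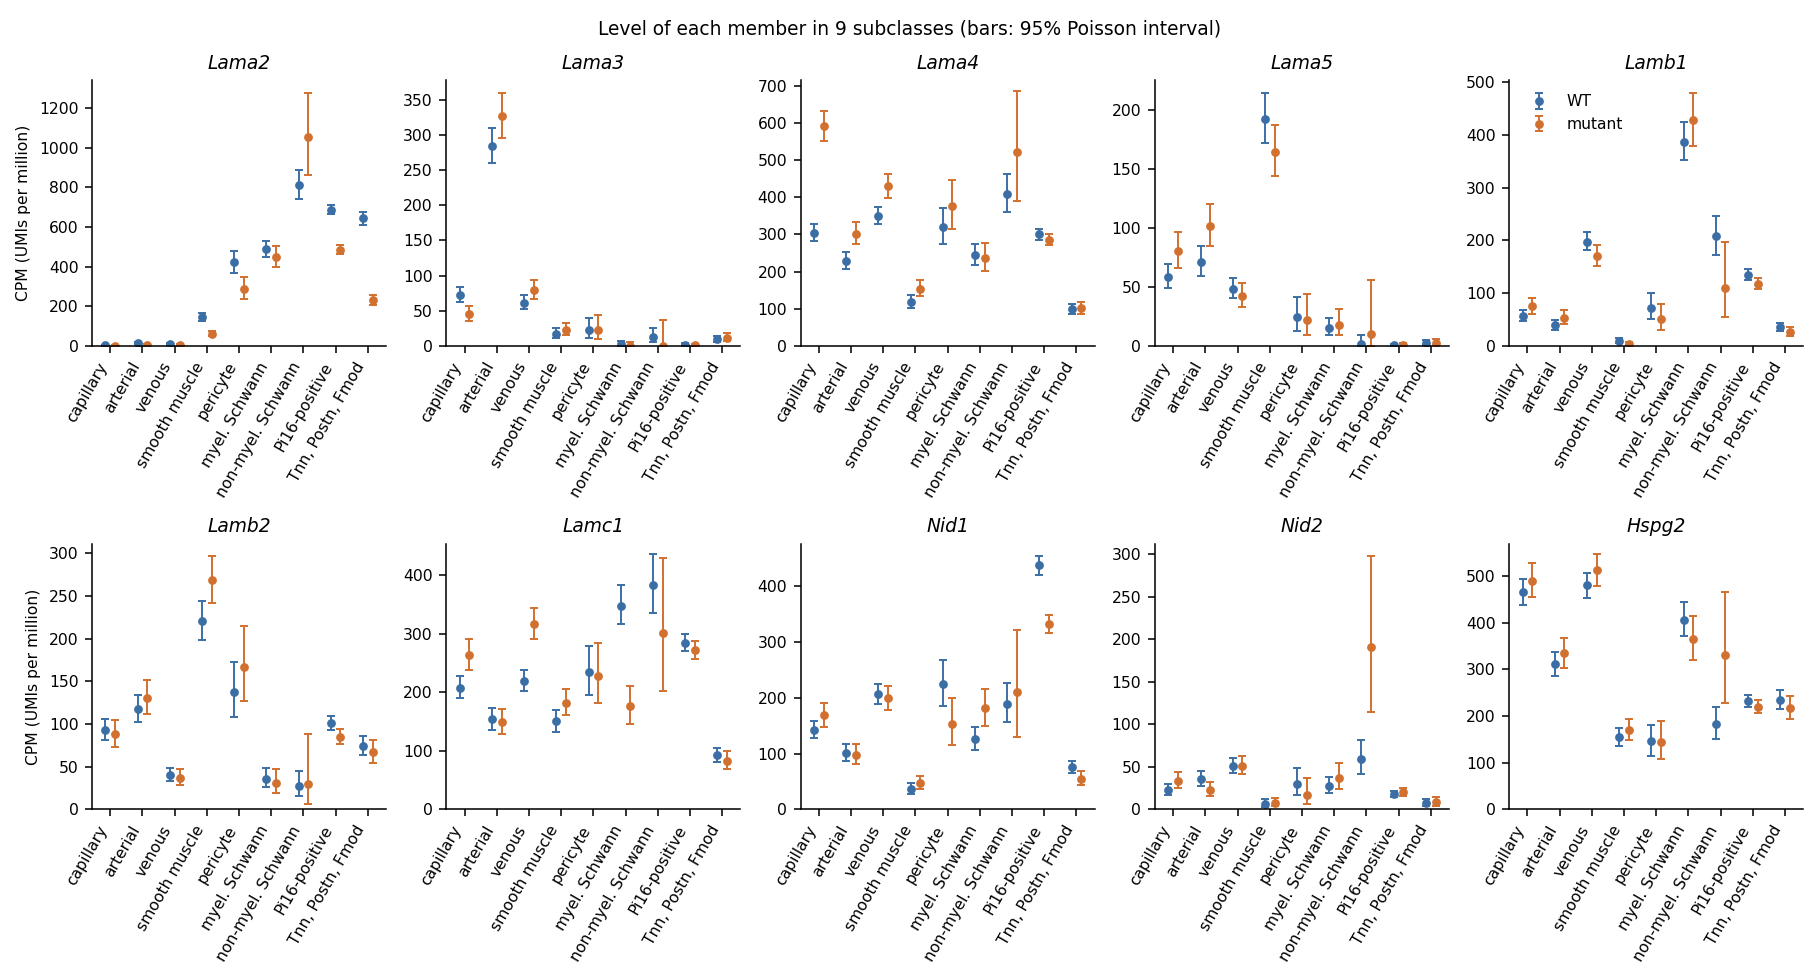
Level of each of the 10 genes (CPM, linear axis from 0, 1 panel per gene) in 9 subclasses, WT in blue and mutant in orange, with 95% Poisson intervals; the last position is the tendon-like stromal cluster. Lama3 peaks in arterial cells, Lama5 and Lamb2 in smooth muscle, Lamb1 in myelinating Schwann cells and Nid1 in Pi16-positive cells.

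The second question was whether loss of 1 Prox1 copy changed these genes. No member with at least 200 UMIs in a class was past 2-fold between the mutant and WT libraries, of 9 tested in endothelial, 7 in mural, 6 in Schwann, 3 in satellite and 8 in stromal cells. Among all genes tested, 0.927% were 2-fold higher and 0.969% lower in mutant endothelial cells, 0.757% and 0.757% in mural, 0.801% and 2.98% in Schwann, 2.29% and 4.58% in satellite and 1.12% and 1.32% in stromal cells. With so few members, a count of 0 is not set apart from these shares.

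Smaller differences went in different directions by class. Summed over the 10 genes, the log2 ratio of mutant over WT was 0.22 (0.18 to 0.26) in endothelial cells, from 1477 to 1720.1 CPM. In stromal cells it was -0.32 (-0.36 to -0.28), from 1930.2 to 1546 CPM. Satellite cells were at -0.16 (-0.29 to -0.03), and the intervals of mural cells at -0.04 (-0.12 to 0.05) and Schwann cells at -0.08 (-0.17 to 0.00) held 0. With a looser cell filter the sums were -0.16 in mural and -0.25 in Schwann cells, with a stricter one the mural sum was -0.27, and in thinned cells the stromal sum was -0.57. Without the pair of clusters made up almost wholly of mutant cells, a setting chosen after seeing the data, the sums were -0.01 in mural and -0.29 in stromal cells. The median log2 ratio of the members tested was 0.08 in endothelial and -0.15 in stromal cells, beside medians over all genes tested of 0.05 and 0.04. With 1 library per genotype, whether ratios of this size exceed the spread between animals was not tested.

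Endothelial cells carried more Lama4 in mutant, with a log2 ratio of 0.56 (0.47 to 0.65) or 1.47-fold. Lamc1 was at 0.34 (0.23 to 0.46) and Lama5 at 0.30 (0.09 to 0.52). Intervals of Lamb1, Lamb2, Nid1, Nid2 and Hspg2 held 0. By vessel type, Lamc1 was at 0.34 in capillary, -0.04 (-0.32 to 0.23) in arterial and 0.53 in venous cells. The venous value was 0.37 without the droplet richest in Lamc1 in each library. Lama5 was at 0.45 in capillary, 0.52 in arterial and -0.19 (-0.63 to 0.23) in venous cells. The Lama4 difference was 0.96 (0.81 to 1.10) in capillary cells, 0.41 (0.20 to 0.61) in arterial cells and 0.30 (0.15 to 0.44) in venous cells. It was thus present in each of these named types, and lymphatic cells could not be examined. The endothelial cluster without a vessel type held Lama4 at 83.6 CPM (47.8 to 136) in WT and at 78.2 CPM (35.8 to 148) in mutant, from 16 and 9 UMIs. Capillary cells held 708 Lama4 UMIs in WT and 851 in mutant, or 304 CPM (282 to 327) in WT and at 590.3 CPM (551 to 631) in mutant, a 1.94-fold ratio just inside the 2-fold line. The share of capillary cells with a Lama4 UMI after thinning was 43.5% and 60.3%. Without the droplet richest in Lama4 in each library the capillary ratio was 0.98, so no single droplet carried it. At resolution 0.5 it was 0.71. Summed stromal markers were lower in mutant, at 322 and 161 CPM in endothelial and at 471 and 144 CPM in capillary cells, as were Schwann markers in capillary cells at 122 and 41.6 CPM. Their part in the Lama4 difference was not tested. Lama3 was at 0.16 (0.01 to 0.31) in all endothelial cells, at 0.20 (0.01 to 0.39) in arterial and at 0.37 (0.03 to 0.71) in venous cells. In capillary cells it went the other way, from 72.6 to 45.1 CPM with a log2 ratio of -0.69 (-1.12 to -0.27). That ratio was 0.05 at resolution 0.5 and -0.08 when the libraries were merged without integration, so it depends on which cells are called capillary.

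Mutant Schwann cells held less Lamc1, at 149 UMIs against 664 in WT and a log2 ratio of -0.90 (-1.17 to -0.65). In myelinating cells alone the ratio was -0.98 (-1.29 to -0.69), from 349 CPM (316 to 383) to 176 CPM (146 to 211). Leaving out the droplet with the most Lamc1 in each library gave -0.95, and thinned cells gave -0.85. In non-myelinating cells Lamc1 was at -0.35 (-0.95 to 0.20), an interval that held 0, from 235 and 30 UMIs. The other members tested in Schwann cells moved less, with Nid1 at 0.33 (0.03 to 0.63), Lamb1 at 0.24 (0.03 to 0.44) and Lama2 at -0.18 (-0.35 to -0.01). The Lamb1 rise was not seen within either Schwann type. It was at 0.14 (-0.07 to 0.36) in myelinating cells and at -0.91 (-1.95 to -0.02) in non-myelinating cells, the latter from 127 and 11 UMIs. Myelinating cells, which were higher in Lamb1, held a larger part of the class in mutant. The part of this mix in the Lamb1 ratio was not tested. Summed endothelial and stromal marker UMIs in Schwann cells were at 215 and 89.1 CPM and at 1798 and 1484 CPM, and their part in the Lamc1 difference was not tested.

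Lama2 was lower in mutant in each class where it was tested. Its log2 ratio was -0.97 (-1.22 to -0.72) in mural cells, -0.69 (-0.76 to -0.62) in stromal cells, -0.20 (-0.35 to -0.05) in satellite cells and -0.18 (-0.35 to -0.01) in Schwann cells. Within Schwann cells the myelinating ratio was -0.12 (-0.33 to 0.08), whose interval held 0. The 50 and 14 non-myelinating cells went the other way, at 0.37 (0.06 to 0.68). Non-myelinating cells, which were higher in Lama2, held 612396 of 1842837 Schwann UMIs in WT and 99637 of 774250 in mutant. The part of this mix in the Schwann ratio was not tested. Stromal markers summed over 9 genes were at 2641 and 1671 CPM in mural and at 1751 and 833 CPM in smooth muscle cells, and endothelial markers at 567 and 296 CPM in mural cells. Their part in the mural Lama2 difference was not tested. The mural value leaned on 1 WT smooth muscle droplet with 104 of the 466 mural Lama2 UMIs, where the next smooth muscle droplet had 7. That droplet held 373 UMIs of stromal markers beside 423 of mural markers, and the doublet caller did not mark it. Without the richest droplet of each library the mural log2 ratio was -0.72, and that of smooth muscle went from -1.21 to -0.64, back inside the 2-fold line.

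In stromal cells Lama2 was at 671 CPM in WT and 416 CPM in mutant. The difference was -0.50 (-0.58 to -0.42) in Pi16-positive cells and -1.47 (-1.65 to -1.30) in tendon-like cells, the latter past 2-fold at 2.77-fold lower, as were 2.20% of 3544 genes. It and the smooth muscle value were the only 2 ratios past 2-fold among members with at least 200 UMIs in one of the 9 subclasses, and 0.699% of 2719 smooth muscle genes were 2-fold lower there and 0.736% higher. In tendon-like cells 1.47% of genes were 2-fold higher. In the other 7 subclasses no member with that many UMIs was past 2-fold, of 8 tested in capillary, 7 in arterial, 8 in venous, 6 in myelinating Schwann and 7 in Pi16-positive cells but 3 each in pericytes and non-myelinating Schwann cells. There the shares of all genes 2-fold higher and lower were 1.01% and 1.67% in capillary, 0.576% and 1.57% in arterial, 1.16% and 1.26% in venous cells and 2.55% and 3.57% in pericytes. In myelinating Schwann cells they were 0.580% and 1.16%, in non-myelinating 6.83% and 12.6%, and in Pi16-positive cells 1.27% and 1.58%. Ratios from fewer UMIs also lay past 2-fold, among them Nid2 in non-myelinating Schwann cells at 1.70 (0.81 to 2.54) from 36 and 19 UMIs and Lama2 in arterial cells at -2.11 (-4.10 to -0.57) from 24 and 4 UMIs. A single WT tendon-like droplet of 58630 UMIs held 553 of the 1509 Lama2 UMIs, and the next 218. Without the richest droplet of each library the tendon-like levels were 418 and 174 CPM, a log2 ratio of -1.26. Its smallest size under another clustering was -0.56, when the libraries were merged without integration. The share of Pi16-positive cells with a Lama2 UMI after thinning was 60.3% in WT and 45.9% in mutant. The summed stromal marker genes were lower in mutant stromal cells too, at 32520 against 40520 CPM, and their part in the Lama2 difference was not tested. Nid1 was next among the stromal members, with a log2 ratio of -0.35 (-0.44 to -0.26).

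**Figure D4:**
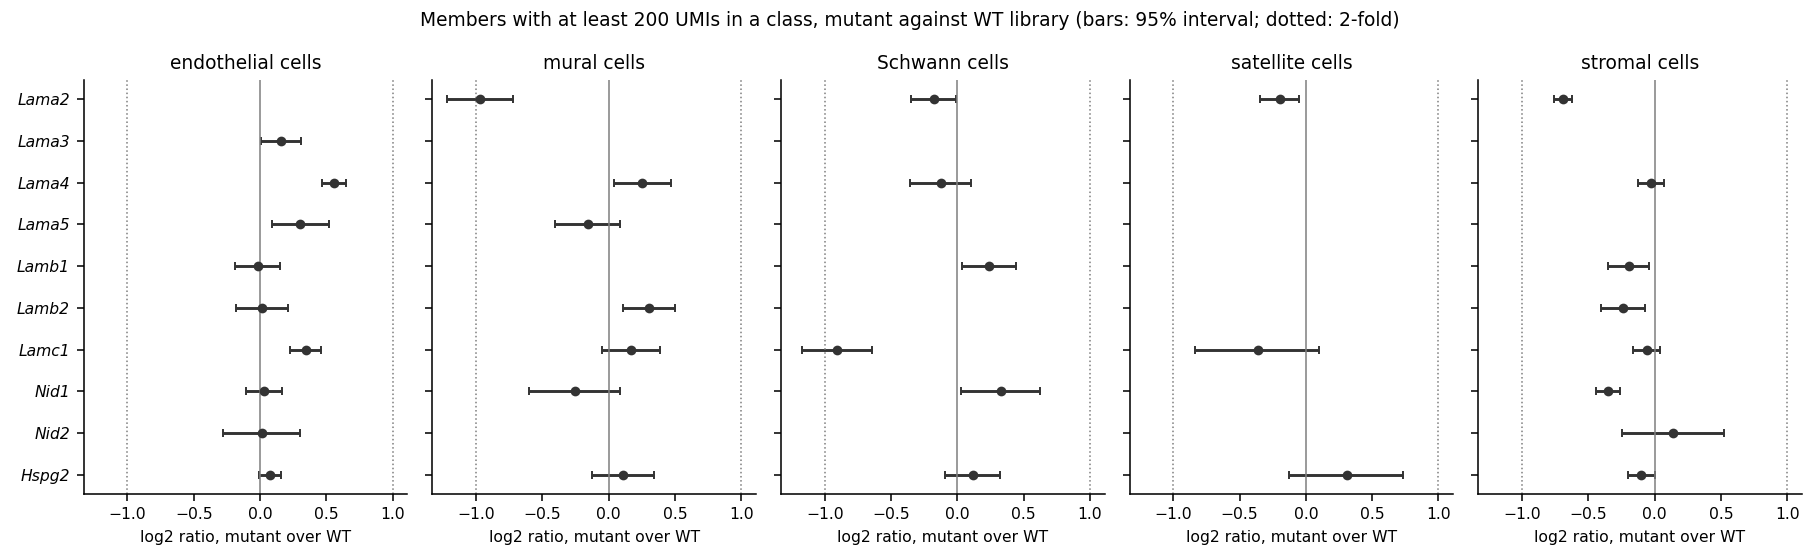
Log2 ratio of mutant over WT CPM for the members with at least 200 UMIs in a class, 1 panel per class, with exact 95% intervals that cover counting error only and dotted lines at 2-fold. No point lies past a dotted line, Lama4 lies right of 0 in endothelial cells, Lamc1 left of 0 in Schwann cells and Lama2 left of 0 in the 4 classes where it was tested.

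Haemoglobin transcripts, a sign of free RNA, and the nuclear RNA Malat1 also differed between the libraries in the same classes. Haemoglobin, which these cells should not make, was at 1582 CPM in WT and 13688 CPM in mutant endothelial cells, at 2801 and 11216 CPM in stromal cells and at 377 and 37355 CPM in satellite cells. In Schwann cells the order was reversed, at 2852 and 1503 CPM. Malat1 was higher in mutant in all 5 classes, at 29035 and 38577 CPM in stromal cells, and is not taken as a sign of free RNA. The part of free RNA or of nuclear RNA in the differences above was not tested. Subtracting the level in B cells, T cells and neutrophils left the summed log2 ratio at 0.24 in endothelial and -0.33 in stromal cells. That level includes the Lamc1 counted in B and T cells, which need not be free RNA, so the subtraction cannot measure the part of free RNA.

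A wider list of 36 genes of the basement membrane and its receptors gave the setting. In endothelial, mural, Schwann, satellite and stromal cells 21, 17, 13, 6 and 21 of them had enough UMIs, and 1 was past 2-fold between libraries, in Schwann cells, where the share of all genes was 0.801% higher and 2.98% lower. This was Fbln2 (fibulin-2, a binder of nidogen and perlecan), which went from 181 CPM in WT to 41.3 CPM in mutant Schwann cells, a log2 ratio of -2.13 (-2.70 to -1.60). Endothelial cells held 367 and 281 CPM of Fbln2 and stromal cells 299 and 296 CPM. Markers of both were lower in mutant Schwann cells, as given above, and their part in the Fbln2 difference was not tested. No Fbln2 ratio was computed by Schwann type or without the richest droplet. Of the 29 genes of the list with at least 200 UMIs in all, 8 were highest in endothelial cells in both libraries, as were 18.1% of all genes. They were the type IV collagen chains Col4a1 and Col4a2, Col15a1, Agrn, Pxdn and the integrin chains Itga1, Itga3 and Itga6. For Agrn the endothelial interval overlapped those of mural and Schwann cells in WT and that of Schwann cells in mutant. The mutant endothelial interval also overlapped that of satellite cells for Pxdn and that of mural cells for Itga3. Mural cells led in 9 (all genes, 9.98%), of which Col4a5, Col4a6, Ntn4, Egflam, Itga7 and Bcam were at least 2-fold over each other class (all genes, 2.67%) and Col18a1, Tinagl1 and Itgb1 were not. Bcam binds the alpha-5 chain, whose gene Lama5 was also highest in mural cells. Schwann cells led in 3 (all genes, 17.0%), with Itgb4, a subunit of a laminin receptor, past 2-fold (all genes, 3.84%) beside Utrn and Sgce. For Sgce the intervals of Schwann and stromal cells overlapped in WT. The genes for dystroglycan (Dag1) and dystrophin (Dmd), which tie laminin alpha-2 to the muscle cell's skeleton, were highest in satellite cells, as Lama2 was and as were 11.0% of all genes, but for Dmd the intervals of satellite and mural cells overlapped in both libraries. Stromal cells led in Fbln1, Smoc2, Hmcn1 and Sparc, all 4 at least 2-fold over each other class (all genes, 12.8% highest and 3.44% past 2-fold).

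The genes whose profiles were most like each member's were found by Pearson's r of log2(CPM + 5) over 10 profiles (5 classes in 2 libraries) among 11136 genes. The 5 profiles of a library share its depth, and no test was made. Nearest to Lama2 were Sdc4 (r = 0.989), Cd63 (r = 0.975) and Galnt17 (r = 0.972). For Lamb2 they were Tgfb1i1 (r = 0.983), Cnn2 (r = 0.963) and Lpp (r = 0.961), and for Lamb1 Trpm3 (r = 0.985), Map6 (r = 0.980) and Pttg1ip (r = 0.974). Nid2 was most like Srgap2 (r = 0.987), Itga2 (r = 0.986) and Gm15902 (r = 0.972). The lowest likeness was that of Lamc1, whose nearest genes were Hsf2 (r = 0.911), Pcbp3 (r = 0.869) and Atg13 (r = 0.860). Nearest were Acacb, Herc1 and Pkp4 to Lama3, Mto1, Tmem50b and Slco3a1 to Lama4, and Arhgef7, Epn2 and Ralgapa2 to Lama5. Those of Nid1 were Fam3c, Phtf1 and Vwa5a, and those of Hspg2 Vps13a, Tbc1d22a and Tmcc3, and over these 5 members r ran from 0.963 to 0.979. No member was among the 3 genes most like another member. With 3 places per member among 11136 genes, that outcome says little about whether the members share a profile.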

How the data were processed

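The data were 2 scRNA-seq libraries of CFA-injected mouse TMJ, 1 WT and 1 Prox1 mutant, grouped by genotype as the labels give it. The deposited values are raw UMI counts per gene and barcode, which the authors made with Cell Ranger 7.0.1 on mm10, per the submitters' processing notes, without normalization. Whether intronic reads were counted was not given in the sources used here. Over the kept cells the total was 48366846 UMIs for WT and 54330221 for mutant.

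Barcodes were kept from 500 detected genes upward if mitochondrial UMIs were under 10%, then normalized with SCTransform (sctransform 0.4.2), integrated by anchors and clustered with 200 principal components at resolution 1.5 (Seurat 5.3.0, R 4.3.3), as in the study's methods. The members and a 36-gene basement membrane list were left out of the integration features, which took out 31 of 3000. Of 42 clusters, 7 stayed unnamed, among them a shallow one of 257 WT and 211 mutant cells nearest to endothelium. All 9 endothelial markers were raised in it, and Ccdc85a, Bmp6, Ablim3, Gm12002 and Lnx1 were among the leading genes of both it and the capillary cluster. No capillary ratio was computed with these cells added. A cluster was named when at least 3 markers of a type were raised, and shallow clusters or those led by another type's markers stayed unnamed. Doublets were called with Scrublet (scanpy 1.11.5) and removed only as an alternative.

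UMIs were summed per class and library and divided by the class total (CPM). Ratios of mutant over WT have exact conditional binomial intervals at 95%, were taken for genes with at least 200 UMIs over both libraries in a class, and were checked on simulated counts. The simulated counts had Poisson error alone, so the check did not cover clumping of UMIs in single droplets. With 1 library per genotype no p-value was computed. A count of 0 is given with the limit of 3 UMIs. Thinned shares use 2000 UMIs per cell and leave out shallower cells, so that 891 of 1002 WT and 491 of 556 mutant endothelial cells, and 466 of 554 and 670 of 774 B cells, T cells and neutrophils, remained. All 10 members were described, with those genes of the wider list that passed 2-fold or led a class and the 3 genes most like each member. The remaining genes of the wider list are counted but not named. Members and lists were chosen with earlier results of these data known. Alternatives changed the cell filter, features, integration, principal components, resolution, doublets, naming, depth, background, thresholds and the droplet richest in these genes.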

Additional observations from a re-analysis of the deposited data

Results flagged for a closer look

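Lamb1, Lamb2, Lamc1 and Nid1 had log2 ratios of mutant over WT on opposite sides of 0 in 2 classes, with both counting intervals leaving out 0. The share of all genes that met this rule was not computed, so it is not read as particular to these members. The difference between the classes was not tested, since each class had 1 library per genotype. For Lamc1 the endothelial ratio exceeded the Schwann ratio by 1.25, and for Nid1 the Schwann ratio exceeded the stromal ratio by 0.68. Lamb2 differed by 0.54 between mural and stromal cells, and Lamb1 by 0.43 between Schwann and stromal cells. Within Schwann cells, however, the Lamb1 interval of myelinating cells held 0 and the non-myelinating ratio lay below 0.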

How the results depend on the processing

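Satellite cells, the class with the fewest UMIs in all, limited the ratios most, since 7 of 10 members had under 200 UMIs over both libraries and got no ratio. No paired analysis was possible because each genotype has 1 library. With a looser cell filter (200 genes, 20% mitochondrial UMIs) the summed log2 ratio of mutant over WT was 0.15 in endothelial, -0.16 in mural, -0.25 in Schwann and -0.36 in stromal cells, and Lama2 was 66.0% of stromal alpha chain UMIs. With at least 1000 genes and under 5% it was -0.27 in mural cells, Lama4 was 42.2% of mural alpha chain UMIs, and 1 member was highest in Schwann cells in both libraries, as with classes from marker UMIs in each cell (1). The stromal summed ratio was -0.45 with 30 principal components, -0.27 at resolution 0.5, -0.27 without doublets and -0.57 in thinned cells. Lama2 made up 69.3%, 66.0%, 67.0% and 73.9% of stromal alpha chain UMIs in these 4, 65.9% in merged libraries and 66.3% without the richest droplets. Lama4 was 34.4% in mural cells without doublets and 65.6% in thinned endothelial cells, and Lama2 62.7% in thinned Schwann cells. Centred on the median of all genes, the endothelial sum was 0.17. At 1.5-fold, Lama2 passed in mural and stromal cells and Lamc1 in Schwann cells. The share of all genes past 1.5-fold was not computed, so these are not set apart from genes at large. The mural sum, whose interval held 0, was 0.03 without the richest droplet. For single members 398 of 429 alternative ratios stayed inside the main interval, and 42 had the other sign. The alternatives that left out clusters mostly of the mutant library or added the shallow endothelial cluster were chosen after seeing the data, and changed no direction of a sum. The cause of these shifts was not tested.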
